A study of Mus musculus with 32 samples.

Results

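The genotype difference under nicotinamide riboside (NR) was examined in male mice. The samples were chosen by their labels alone. They are the 8 male mice on NR, 4 Alport and 4 control, of 32 mice in the series. Alport mice were Col4a3-/- and controls Col4a3+/-, both of the strain C57BL/6J-Col4a3tm1Dec, and all were 25 weeks old. NR made up 0.5% w/w of a purified diet from the age of 10 weeks on, and vehicle mice ate that diet without NR. The allele is a null of the whole body, and the controls carry 1 copy of it. Kidney cortex of each mouse gave 1 poly(A) RNA library, and the other groups are male mice on vehicle and females on NR or vehicle, 4 mice per genotype in each. The question was how far the cortex of Alport mice differed from that of controls when both ate NR, and whether that difference was another than under vehicle.

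In Alport syndrome the type IV collagen network of the glomerular basement membrane lacks the chains encoded by *Col4a3*, *Col4a4* and *Col4a5*, because these assemble only together. Podocytes, the epithelial cells that sit on this membrane, are damaged first, and protein leak, tubule injury, inflammation and fibrosis follow. Proximal tubule cells carry most of the transport work of the cortex and draw their energy largely from fatty acid oxidation (FAO), which runs in mitochondria and peroxisomes and is switched on by the nuclear receptor PPARα with its partner RXR and the coactivator PGC-1α. NR is a precursor of NAD+, the electron acceptor that FAO and the citric acid cycle need, and NR kinases carry out its first step.

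The deposited counts per gene of the 8 libraries summed to 18588229–26314137. Levels are CPM, counts scaled to a common library total with TMM factors, and the values of a gene are given for replicates 1 to 4 in that order. Genes were tested with edgeR's quasi-likelihood test in the 8 mice, and every adjusted p is the Benjamini-Hochberg value of that test over the 14884 genes tested unless another fit is named. Log2 fold changes are Alport minus control, and the error beside them is the standard error (SE) of the fit. *Col4a3* itself (chr1:82586921-82722059, mm10) was at 67.7, 58.6, 56.1 and 61.7 CPM in Alport and 59.4, 94.1, 75.2 and 159.6 CPM in control mice, so the groups overlapped, through control replicate 1. Its level relative to *Col4a4* did not overlap, at −1.63 to −1.28 log2 units in Alport and −0.90 to −0.28 in control mice. The cortex markers *Slc34a1*, *Lrp2* and *Umod* were at 665 CPM or more in all 8 mice, and the fat and adrenal markers *Adipoq*, *Plin1*, *Cyp11b1* and *Cyp11a1* at 0.594 CPM or less. *Slc14a2*, a urea transporter of the inner medulla, was at 36.3, 1.32, 0.104 and 0.0457 CPM in the controls and 1.96, 0.0579, 2.90 and 0.134 CPM in the Alport mice, so that control replicate 1 stood apart from the other 7.

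No gene passed an adjusted p of 0.05, although many genes separated the groups. The smallest adjusted p was 0.0666, 702 genes were under 0.10, and 3208 genes (21.6%) had an unadjusted p under 0.05, of which 2079 (14.0%) were higher and 1129 (7.59%) lower in Alport mice. The levels of 2238 genes (15.0%) did not overlap between the groups, with 1126 (7.57%) above all controls and 1112 (7.47%) below. Counts of list genes above or below all controls are read against these shares. With other tools the count was 0 in limma-voom, with 3111 genes at an unadjusted p under 0.05, and 1381 (9.28%) in DESeq2, of which 1032 were higher (6.93%) and 349 lower (2.34%). When the spread was estimated from all 16 male mice, edgeR called 2352 of 15800 genes (14.9%), 1612 of them higher (10.2%) and 740 lower (4.68%), and in the fit of all 32 mice it called 4554 of 16469 (27.7%). Both wider fits take their spread partly from groups that varied less. The median SD of a gene was 0.139 to 0.218 log2 CPM in the added groups, against 0.222 and 0.321 in the 2 groups compared. Counts from these fits, also those for lists below, may therefore understate the spread of the 8 mice. Leaving out Alport replicate 1 gave 87 genes in edgeR, 86 of them higher, leaving out Alport replicate 2 gave 6, and leaving out any of the other 6 mice gave 0. With the replicate number as a block, edgeR called 351 genes, 297 higher and 54 lower. Scaling by total counts alone moved the median log2 fold change of all genes from 0.0076 to 0.29 and left 2489 genes above and 229 below without overlap, 91.6% above in place of 50.3%, so list medians are read against the median of all genes.

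The 4 Alport mice on NR were unlike each other. The median SD of a gene was 0.321 log2 CPM among them, against 0.222 in NR-treated controls, 0.167 in vehicle-treated Alport males and 0.153 in vehicle-treated control males. Replicate 1 had 1174 genes at least 2-fold above all 4 controls and 478 at least 2-fold below, and replicate 3 had 289 and 445. Replicates 2 and 4 had 77 and 116 such genes above, and 8 and 12 below. In the vehicle-treated Alport males the 4 mice had 800 to 1373 genes above and 77 to 468 below their controls. Replicates 1 and 3 also had the fewest reads of mitochondrial genes (8.78% and 11.3% of counts, against 13.2% to 16.4% in the other 6 mice) and of the 4 globin genes (0.0077% and 0.0039%, against 0.054% or more). The part of these differences in the results below was not tested.

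**Figure D1:**
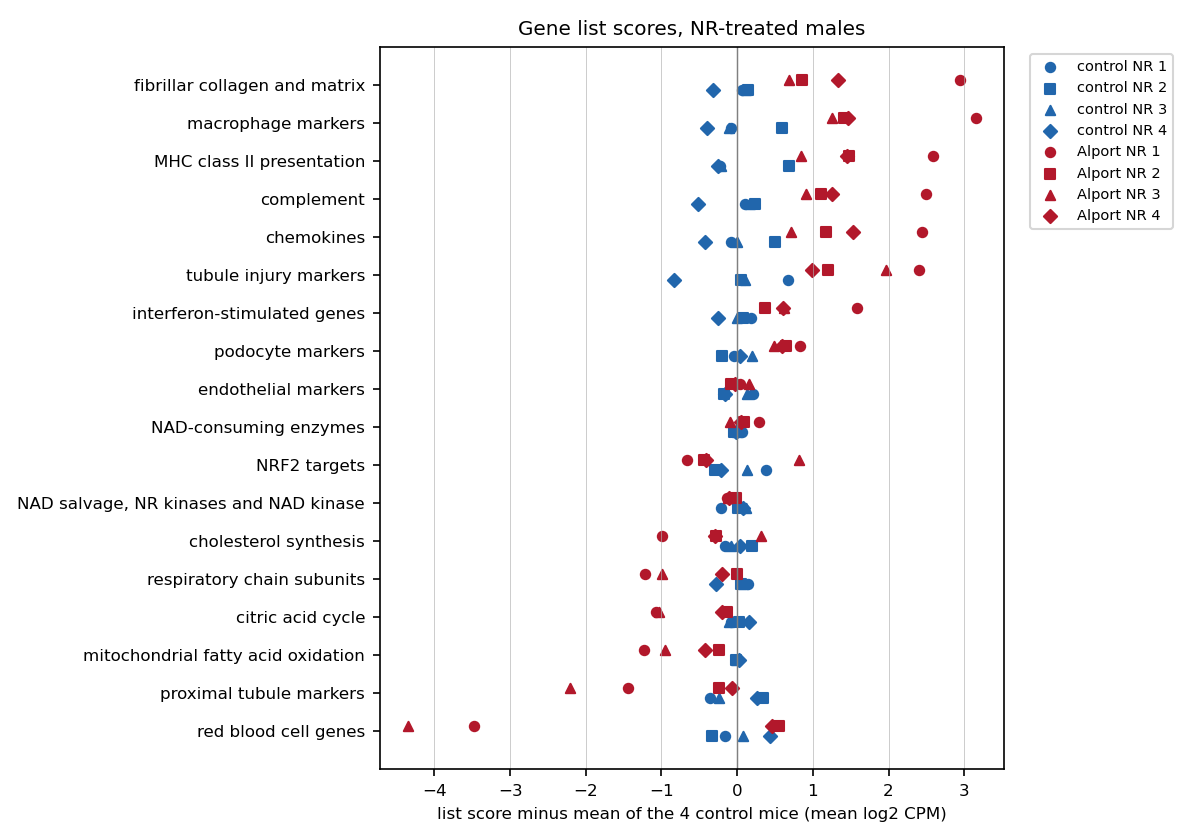
Mean log2 CPM of the tested genes of 18 lists in each NR-treated male, as the difference from the mean of the 4 controls (horizontal axis, log2 units), with 1 symbol per replicate, red for Alport and blue for control. Alport replicate 1 lies farthest to the right for matrix (2.95) and macrophage genes (3.15), and Alport replicate 3 farthest to the left for proximal tubule markers (−2.21).

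The list score of podocyte markers, the mean log2 CPM of the list's genes, was higher in all 4 Alport mice than in any control. It was 0.84, 0.64, 0.48 and 0.59 above the control mean in replicates 1 to 4. Nestin (*Nes*, chr3:87971093-87980451, mm10), an intermediate filament protein that podocytes hold in the adult kidney, had the smallest p of all genes. It was at 143, 107, 97.3 and 113 CPM in Alport and 40.3, 30.0, 47.7 and 39.5 CPM in control mice, a log2 fold change of 1.57 ± 0.17 (SE, adjusted p = 0.0666). All Alport mice lay at least 2-fold above the highest control. *Ptpro*, a receptor phosphatase of the podocyte surface, was at 41.8, 37.6, 31.4 and 36.2 CPM in Alport and 14.4, 15.4, 18.4 and 22.7 CPM in control mice (1.08 ± 0.16, adjusted p = 0.074). The groups did not overlap for either gene, and replicate 3 was the lowest Alport mouse for both. *Synpo* (1.02), a partner of actin, and *Nphs1* (0.84), which encodes nephrin, did not overlap either. Of 18 podocyte markers tested, 14 had a log2 fold change above 0 and 4 below, the lowest at −0.23. Of the 18, 10 lay above all controls and none below. Their median log2 fold change was 0.82, and DESeq2 and the fit of 16 males each called 11. *Kirrel*, which encodes the nephrin partner NEPH1 and is on no list, was among the 10 genes with the smallest p (1.60). The one with the largest p was *Clic5* (−0.044). In a bulk sample, more podocytes, more RNA per podocyte and less RNA from other cells cannot be told apart.

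The type IV collagen chains differed among themselves. *Col4a1*, whose product is part of the ubiquitous network of basement membranes, was at 611, 214, 319.6 and 301 CPM in Alport and 166, 196, 167 and 126 CPM in control mice (1.17 ± 0.31, adjusted p = 0.0919). *Col4a2*, its partner, was at 469.8, 179, 311 and 232 CPM against 146, 146, 149 and 97.6 CPM (1.17 ± 0.29, adjusted p = 0.0845). For both, every Alport mouse lay above every control. *Col4a6* had a log2 fold change of 1.64 with overlapping groups, and the partners of the missing chain, *Col4a4* (0.18) and *Col4a5* (0.23), overlapped as well.

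Interstitial matrix genes had one of the highest medians, and Alport replicate 1 stood far above the other Alport mice. Of 27 genes for fibrillar collagens and matrix proteins, all had a log2 fold change above 0 and 15 lay above all controls, with a median of 1.91 against 0.0076 over all genes. The list score was 2.95, 0.86, 0.69 and 1.33 above the control mean in Alport replicates 1 to 4. The fit of 16 males called 22 of them higher. Without replicate 1 the median was 1.05. *Col1a1*, the main fibrillar collagen of scars, was at 444, 49.9, 35.9 and 126 CPM in Alport and 10.8, 25.7, 10.9 and 8.50 CPM in control mice (3.58 ± 0.80, adjusted p = 0.0808). *Tnc*, tenascin C of remodelled tissue, was at 79.1, 13.4, 14.8 and 19.7 CPM against 7.04, 6.36, 5.62 and 2.79 CPM (2.57 ± 0.60, adjusted p = 0.082). *Ltbp2*, a binding protein of elastic fibres, was chosen after its values were seen, for the largest log2 fold change among genes without overlap whose mean in 1 group reached 20 CPM. It was at 155, 15.4, 4.53 and 28.0 CPM against 0.808, 4.44, 1.56 and 1.46 CPM (4.65 ± 1.07, adjusted p = 0.081). In all 3 the Alport mice lay above the controls, and replicate 1 lay 2-fold or more above the other Alport mice. *Col6a2* (2.28), *Col1a2* (2.72), *Thbs2* (2.39) and the protease *Mmp2* (2.91) did not overlap, whereas *Col3a1* (2.65) and fibronectin *Fn1* (2.18) did, since Alport replicate 3 lay within the control range. Lumican, *Lum* (0.67), had the largest p.

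Enzymes and inhibitors of matrix turnover lay above all controls in 13 of 19 members, with a median of 1.82. *Timp1*, an inhibitor of metalloproteinases, was at 31.1, 7.71, 3.38 and 10.6 CPM in Alport and 1.27, 1.5, 1.04 and 0.731 CPM in control mice (3.57 ± 0.65, adjusted p = 0.074). *Loxl2*, which cross-links collagen, was at 73.6, 21.0, 17.0 and 30.9 CPM against 5.31, 8.45, 8.07 and 6.53 CPM (2.36 ± 0.44, adjusted p = 0.074). No value of either gene overlapped between groups. Beside them stood *Loxl1* (1.59) and *Mmp7* (3.87), without overlap, and *Timp3* (−0.096) with the largest p. Among 10 tested genes of myofibroblasts, the contractile cells of scars, 4 lay above all controls (median 0.93). They were vimentin, *Vim*, at 222, 121, 118 and 115 CPM in Alport and 52.1, 60.3, 58.7 and 49.7 CPM in control mice (1.41 ± 0.22, adjusted p = 0.074), *Tagln* (1.25), *Pdgfrb* (1.42) and *Pdgfra* (1.34). Smooth muscle actin, *Acta2* (0.59), overlapped, and *S100a4* (0.35) had the largest p.

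Genes of injured tubule cells were above all controls in 14 of 26 members, and all 26 had a log2 fold change above 0 (median 1.63). In the fit of 16 males 17 rose. *Havcr1*, which encodes KIM-1, the standard marker of proximal tubule injury, was at 119, 93.1, 177 and 62.3 CPM in Alport and 5.13, 21.8, 11.9 and 3.11 CPM in control mice (3.46 ± 0.59, adjusted p = 0.074). *Lcn2*, which encodes NGAL, was at 137, 42.5, 128 and 35.6 CPM against 25.9, 9.83, 7.75 and 1.28 CPM (2.96 ± 0.77, adjusted p = 0.0927). *Krt20*, a keratin of damaged tubules, was at 33.4, 23.1, 65.3 and 13.3 CPM against 1.21, 3.30, 2.50 and 1.10 CPM (4.09 ± 0.55, adjusted p = 0.074). For *Havcr1* and *Krt20* the highest Alport mouse was replicate 3, not replicate 1. *Sox9*, a transcription factor of repairing tubule cells, was at 32.2, 3.94, 11.7 and 8.15 CPM against 1.5, 1.86, 1.30 and 0.640 CPM (3.44 ± 0.64, adjusted p = 0.074). *Spp1*, osteopontin, was among the most abundant at 9867, 3413, 3605 and 2736 CPM against 1763, 1191, 1541 and 699 CPM (1.94 ± 0.48, adjusted p = 0.0845). Neither overlapped between groups. *Vcam1* (2.84), a mark of tubule cells that failed to repair, did not overlap either, and the stress cytokine *Gdf15* (0.38) had the largest p. *Stc2*, a secreted glycoprotein with the next smallest p after *Nes* and on no list, was at 22.0, 9.62, 17.1 and 8.37 CPM against 2.48, 2.22, 2.55 and 2.06 CPM (2.64 ± 0.32, adjusted p = 0.074), again without overlap.

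**Figure D2:**
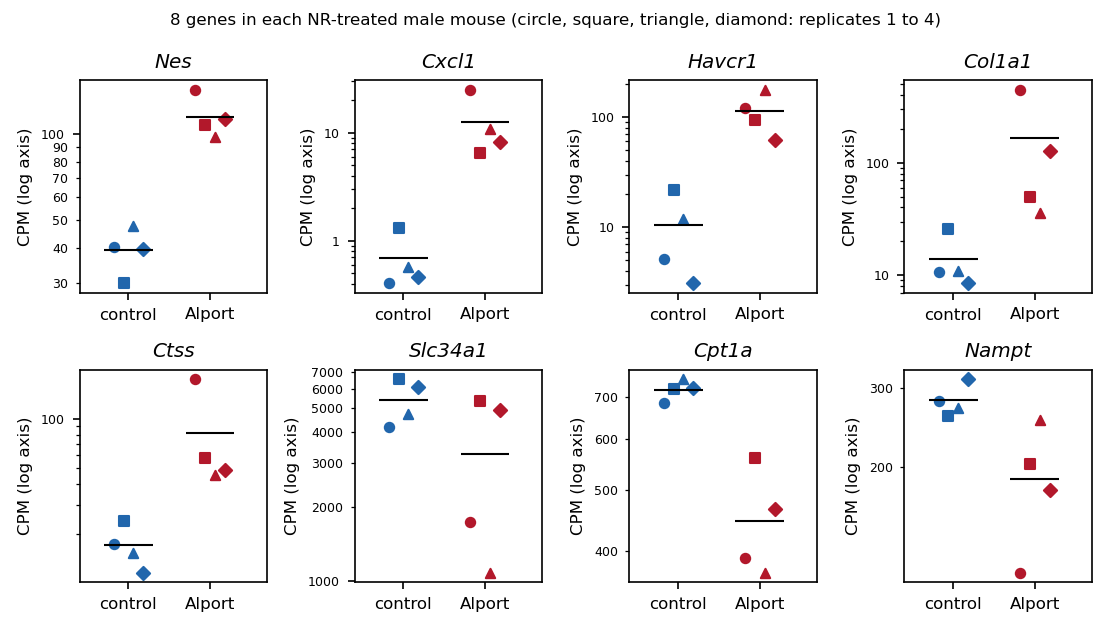
CPM of 8 genes (vertical axes, log scale) in each NR-treated male, with 1 symbol per replicate and a line at the mean of 4 mice. *Nes*, *Cxcl1*, *Havcr1*, *Col1a1* and *Ctss* do not overlap with Alport above control, *Cpt1a* and *Nampt* do not overlap with Alport below, and *Slc34a1* overlaps, with Alport replicates 1 and 3 at 1730.4 and 1080.5 CPM.

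Macrophage genes had the highest median of the lists, 2.19, with 13 of 20 members above all controls and all above 0. The fit of 16 males called 19 of the 20 higher. The list score was 3.15, 1.41, 1.25 and 1.47 above the control mean in Alport replicates 1 to 4, and without replicate 1 the median was 1.51. *Ctss*, the lysosomal protease cathepsin S, was at 173, 57.7, 45.6 and 48.7 CPM in Alport and 17.3, 24.0, 15.2 and 11.6 CPM in control mice (2.28 ± 0.45, adjusted p = 0.074). *Mrc1*, the mannose receptor of resident macrophages, was at 57.9, 13.3, 14.1 and 13.7 CPM against 4.44, 6.12, 3.38 and 2.83 CPM (2.59 ± 0.53, adjusted p = 0.0777). *Gpnmb*, a glycoprotein of lipid-laden macrophages, was at 22.9, 5.91, 14.0 and 3.27 CPM against 0.865, 1.98, 0.364 and 0.640 CPM (3.63 ± 0.69, adjusted p = 0.074), highest in replicates 1 and 3. *Msr1* (2.46) and *C1qa* (2.09) did not overlap, and *Mertk* (0.16), which other kidney cells also transcribe, had the largest p. The growth factors of these cells were also above all controls. *Csf1* was at 55.0, 24.1, 30.1 and 20.8 CPM in Alport and 8.60, 12.7, 11.1 and 10.1 CPM in control mice (1.64 ± 0.29, adjusted p = 0.074), and *Il34*, the other ligand of the same receptor, at 89.2, 34.8, 34.2 and 42.7 CPM against 9.17, 12.9, 6.51 and 7.45 CPM (2.51 ± 0.35, adjusted p = 0.074).

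MHC class II genes, which present antigen, lay above all controls in 6 of 9 members, with a median of 1.80. *H2-DMb1*, a chain of the peptide loading factor, was at 63.8, 34.2, 37.6 and 29.0 CPM in Alport and 12.3, 18.0, 10.6 and 12.1 CPM in control mice (1.66 ± 0.26, adjusted p = 0.074). *H2-DMa* (1.79), *H2-DMb2* (2.75) and the invariant chain *Cd74* (1.96) did not overlap, and *H2-Ob* (0.37) had the largest p. No lymphocyte marker separated the groups. Of 11 tested T cell and NK markers none was outside the control range in all 4 mice (median 0.89, 0.53 without replicate 1), with *Cd4* (1.61), *Cd3d* (1.25), *Lck* (0.94) and *Nkg7* (1.23) at one end and *Cd8a* (0.38) at the other. For 10 B cell and plasma cell markers the median was 0.44, and −0.74 without Alport replicate 1. *Ighm*, the heavy chain of IgM, was at 22.5, 8.75, 1.75 and 20.4 CPM in Alport and 4.33, 15.2, 4.42 and 4.25 CPM in control mice, where the groups overlapped. The others named by rule were *Cd22* (0.42), *Cd79a* (−0.65), *Igha* (0.74) and *Mzb1* (0.068). Only 3 of 10 neutrophil markers passed the filter on low counts, *Csf3r* (2.21), *S100a8* (0.90) and *Cxcr2* (0.24), and all overlapped.

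Of 17 tested chemokines and related cytokines, 7 lay above all controls (median 1.69, 1.04 without Alport replicate 1). *Cxcl1*, which attracts neutrophils, was at 25.0, 6.49, 10.8 and 8.15 CPM in Alport and 0.404, 1.32, 0.572 and 0.457 CPM in control mice (4.23 ± 0.55, adjusted p = 0.074). *Cxcl2*, its neighbour on chromosome 5 with the same receptor, was at 4.03, 1.27, 2.49 and 1.61 CPM against 0.0577, 0.240, 0.364 and 0.0457 CPM (3.74 ± 0.63, adjusted p = 0.074), where the 4 controls together had 13 counts. All Alport mice lay above all controls for both. *Ccl21a* (−0.15) had the largest p. Interferon-stimulated genes were above all controls in 8 of 20 members and below in 1, *Rsad2* (−0.27), with a median of 0.91. *Gbp2*, a GTPase of the defence against intracellular microbes, was at 28.0, 22.7, 17.6 and 18.2 CPM in Alport and 9.75, 11.9, 7.65 and 10.8 CPM in control mice (1.14 ± 0.19, adjusted p = 0.074). *Gbp3*, on the same chromosome, was at 19.9, 10.9, 12.0 and 10.4 CPM against 8.36, 6.78, 4.06 and 6.67 CPM (1.07 ± 0.28, adjusted p = 0.0886). *Tgtp1*, another GTPase of this kind but on no list, was at 16.6, 27.1, 24.5 and 18.0 CPM against 6.29, 10.5, 6.71 and 7.90 CPM (1.49 ± 0.22, adjusted p = 0.074), with the highest value in replicate 2 rather than replicate 1. *Stat2* (0.82) and *Oas2* (2.21) did not overlap, and *Ifi44* (−0.15) had the largest p.

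The promoters of *Cxcl1*, *Cxcl2*, *Gbp2* and *Gbp3* are shown because each pair lies in 1 region of a chromosome, lay above all controls in every Alport mouse and carries letters that are well known from such genes. Each line gives the 250 bases before the start site, 5′ to 3′, from RefSeq on GRCm38.p6, the assembly of mm10. All are on the plus strand, *Cxcl1* at chr5:90890995-90891244, *Cxcl2* at chr5:90903649-90903898, *Gbp2* at chr3:142620413-142620662 and *Gbp3* at chr3:142559794-142560043. Capitals mark an NF-kB motif (GGG, any 2 bases, TTTCC) on either strand in *Cxcl1* and *Cxcl2*, and an interferon response motif (GAAA, any 2 bases, GAAA) on either strand in *Gbp2* and *Gbp3*, where 2 matches overlap in *Gbp3*.
Cxcl1: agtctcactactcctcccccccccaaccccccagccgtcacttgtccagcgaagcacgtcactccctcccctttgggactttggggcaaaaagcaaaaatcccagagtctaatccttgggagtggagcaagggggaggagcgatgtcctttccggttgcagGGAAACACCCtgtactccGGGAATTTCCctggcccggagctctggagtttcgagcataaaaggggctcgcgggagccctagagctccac
Cxcl2: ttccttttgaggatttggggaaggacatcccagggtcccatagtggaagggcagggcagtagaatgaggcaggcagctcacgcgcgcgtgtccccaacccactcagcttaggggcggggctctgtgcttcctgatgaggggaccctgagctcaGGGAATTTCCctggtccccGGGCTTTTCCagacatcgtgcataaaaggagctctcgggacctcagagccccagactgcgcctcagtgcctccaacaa
Gbp2: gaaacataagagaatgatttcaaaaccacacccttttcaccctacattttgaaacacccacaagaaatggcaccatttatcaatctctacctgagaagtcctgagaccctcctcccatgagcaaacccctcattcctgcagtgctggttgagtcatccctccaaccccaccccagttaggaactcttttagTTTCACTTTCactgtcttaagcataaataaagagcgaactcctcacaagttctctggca
Gbp3: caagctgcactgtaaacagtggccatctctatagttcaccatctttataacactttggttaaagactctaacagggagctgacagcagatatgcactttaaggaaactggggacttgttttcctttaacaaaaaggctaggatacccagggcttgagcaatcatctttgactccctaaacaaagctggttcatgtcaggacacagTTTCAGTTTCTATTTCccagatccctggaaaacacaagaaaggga
Windows of 300 bases (250 before and 50 after each start site) were searched on both strands, and a gene counts if any of its windows matches. The NF-kB motif occurs in 1.89% of 27025 genes (1.63% of 32851 windows). It occurs in 4 of 18 chemokines with a window, *Cxcl1*, *Cxcl2*, *Csf1* and *Ccl9*. The interferon motif occurs in 3.99% of genes (3.44% of windows) and in 10 of 14 interferon-stimulated genes with a window. These include *Stat2* and also *Rsad2*, *Ifit1* and *Isg15*, whose groups overlapped or, for *Rsad2*, lay the other way. A PPAR motif (AGGNCA repeated after any 1 base) occurs in 0.451% of genes (0.381% of windows). It occurs in none of 20 genes of mitochondrial FAO or 14 of peroxisomal FAO and in 1 of 19 other PPAR targets, *Fabp1*. The matches are a description of letters and not of binding.

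Complement genes lay above all controls in 11 of 16 members, with a median of 1.69, or 1.08 without Alport replicate 1. *C3*, the central component, was at 2430.5, 939, 812 and 717 CPM in Alport and 286, 102, 373 and 64.3 CPM in control mice (2.58 ± 0.63, adjusted p = 0.0845). *C7*, of the membrane attack complex, was at 45.6, 17.8, 52.2 and 19.4 CPM against 6.40, 7.62, 6.82 and 3.97 CPM (2.47 ± 0.39, adjusted p = 0.074). Both were free of overlap, as were *C4b* (2.91), *C6* (2.51) and the receptor *C5ar1* (2.43), while *C2* (0.048) had the largest p. Cell cycle genes separated little, with 2 of 26 above all controls, the helicase subunits *Mcm5* (1.01) and *Mcm3* (0.85). Their median was 0.71, but 0.14 without Alport replicate 1, with *Bub1b* (1.25) and *Birc5* (0.96) overlapping and *Tyms* (−0.055) at the largest p.

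Markers of the proximal tubule went the other way and were low in Alport replicates 1 and 3. Of 24 members 8 lay below all controls and 23 had a log2 fold change below 0, with a median of −0.75. With total counts it was −0.56, or −0.85 relative to all genes. The list score differed from the control mean by −1.45, −0.24, −2.21 and −0.065 in Alport replicates 1 to 4. *Slc34a1*, the phosphate transporter of the brush border, was at 1730.4, 5368, 1080.5 and 4923 CPM in Alport and 4192, 6559.6, 4720.4 and 6093 CPM in control mice (−0.68 ± 0.50, adjusted p = 0.432). *Lrp2*, the endocytic receptor megalin, was at 762, 1493, 665 and 1873 CPM against 1739, 2541, 2034 and 2377 CPM (−0.82 ± 0.36, adjusted p = 0.224). For both genes replicates 1 and 3 lay below all controls, and replicates 2 and 4 lay within the control range, apart from *Lrp2* in replicate 2. *Aqp1*, a water channel, was at 433, 920.0, 438 and 879 CPM against 1399, 1400.3, 1057 and 1508 CPM (−0.97 ± 0.31, adjusted p = 0.131), and *Gatm*, of creatine synthesis, at 156, 575, 174 and 639.7 CPM against 713, 936, 1131 and 1062 CPM (−1.28 ± 0.47, adjusted p = 0.173). Neither overlapped, nor did *Slc5a12* (−0.84) and *Cubn* (−0.96). *Slc13a1* (0.028), a sulfate transporter, had the largest p. Genes on no list at 20 CPM or more that lay below all controls included *Clec2h* (−1.91), the organic anion transporter *Slc22a26* (−1.69), apolipoprotein M *Apom* (−1.40), the peroxisomal oxidase *Hao2* (−1.32) and *Papss2* (−1.18), of sulfate activation, all chosen after values were seen.

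Later segments of the nephron showed smaller differences. All 16 markers of the loop of Henle and distal tubule were below 0, and 3 lay below all controls (median −0.49): *Kcnj1* (−0.72), *Cldn10* (−0.58) and *Slc12a3* (−0.74), a potassium channel, a tight junction protein and the thiazide-sensitive transporter. *Klhl3* (−0.75) and *Umod* (−0.14) overlapped, and *Cldn16* (−0.017) had the largest p. Of 15 collecting duct markers all were below 0 and 1 lay below all controls, the sodium channel subunit *Scnn1g* (−0.42). That is no larger a share than the 7.47% of all genes. The median was −0.42, with *Avpr2* (−0.77), *Slc4a1* (−0.99), *Aqp3* (−0.57), *Aqp2* (−0.26) and *Kcne1* (−0.086) all overlapping. With total counts the median was −0.16, or −0.44 relative to all genes, and that of the loop and distal tubule −0.23, or −0.52. In both lists the score of every Alport mouse lay below that of every control, by narrow gaps. For the loop and distal tubule it was 6.824 log2 CPM in Alport replicate 4 against 6.841 in control replicate 2. For the collecting duct it was 5.115 in Alport replicate 2 against 5.132 in control replicate 4. Without control replicate 1, which stood apart in *Slc14a2*, the collecting duct median was −0.30.

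Mitochondrial FAO had the largest share of genes without overlap among the 10 lists of metabolism and regulators. All 24 genes had a log2 fold change below 0, 15 lay below all controls, and the median was −0.61. With total counts it was −0.38, or −0.67 relative to all genes. The list score differed from the control mean by −1.23, −0.24, −0.95 and −0.43 in Alport replicates 1 to 4, while the controls lay between 8.15 and 8.20 log2 CPM, and the fit of 16 males called 13 genes lower. *Cpt1a*, the entry step of fatty acids into mitochondria, was at 389.8, 560.0, 369.6 and 466 CPM in Alport and 685, 721, 746 and 723 CPM in control mice (−0.66 ± 0.19, adjusted p = 0.114). *Slc25a20*, the carnitine carrier of the inner membrane, was at 76.7, 104, 75.3 and 76.0 CPM against 139, 119, 142 and 119 CPM (−0.62 ± 0.15, adjusted p = 0.0845). *Hadha*, of the trifunctional protein, was at 198, 277, 266 and 243 CPM against 420.5, 330.3, 377 and 347 CPM (−0.55 ± 0.17, adjusted p = 0.125). Every Alport mouse was below every control in these 3 genes. *Acadl* (−0.56) and *Acad12* (−0.86) did not overlap either, whereas *Acadm* (−0.74) did, and *Eci1* (−0.41) had the largest p. Peroxisomal FAO had 7 of 18 genes below all controls and a median of −0.57. *Acox2* (−0.81), *Acaa1b* (−0.86) and *Ehhadh* (−0.64), enzymes of the chain-shortening cycle, did not overlap. *Decr2* (−0.58) and *Hacl1* (−0.90) did.

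PPARα and its coactivator were below the controls in every Alport mouse. *Ppara* was at 39.3, 64.0, 49.2 and 67.0 CPM in Alport and 71.4, 105, 83.6 and 115 CPM in control mice (−0.74 ± 0.20, adjusted p = 0.102) without overlap, and *Ppargc1a*, which encodes PGC-1α, did not overlap either (−0.53 ± 0.17, adjusted p = 0.131). *Esrra* (−0.48) and *Rxra* (−0.26) overlapped, *Rxrb* (−0.083) had the largest p, and the median of 10 regulators was −0.21. With total counts it was 0.052, or −0.23 relative to all genes. Of 26 other PPAR targets 6 lay below all controls, with a median of −0.57. *Vnn1*, a pantetheinase, was at 127, 193, 190.2 and 156 CPM in Alport and 271, 355, 267 and 309 CPM in control mice (−0.82 ± 0.18, adjusted p = 0.0808). *Acot4*, a peroxisomal thioesterase, was at 41.4, 77.9, 50.5 and 47.2 CPM against 103, 97.4, 101 and 91.5 CPM (−0.83 ± 0.19, adjusted p = 0.081). Again no value overlapped, nor for *Acot3* (−1.51) and *Plin5* (−0.79). The genes most used as readouts of PPARα, *Cyp4a10* (−0.84), *Cyp4a14* (−0.45), *Acot1* (−0.99) and *Fabp1* (−0.56), overlapped, and *Cyp4a12a* (−0.060) had the largest p. Counts of the Cyp4a, Acot, Acaa1, Gsta, Gbp, Tgtp, MHC class II and globin genes are uncertain, since near-identical paralogs may share reads.

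The citric acid cycle and the respiratory chain had smaller medians than FAO. Of 23 cycle genes all were below 0 and 10 below all controls (median −0.54), and of 34 nuclear subunits of the respiratory chain all were below 0 and 12 below all controls (median −0.48). *Idh2*, mitochondrial isocitrate dehydrogenase, was at 219, 460.4, 260.3 and 447 CPM in Alport and 606, 584, 509.9 and 601 CPM in control mice (−0.70 ± 0.27, adjusted p = 0.183). *Uqcrc2*, a core protein of the cytochrome bc complex, was at 215, 395, 239.7 and 397 CPM against 496, 505, 467 and 603 CPM (−0.70 ± 0.24, adjusted p = 0.156). In both, replicates 1 and 3 lay far below and replicates 2 and 4 closer to the lowest control. *Idh3b* (−0.60), *Sdhb* (−0.57), *Atp5c1* (−0.59), *Ndufv2* (−0.52) and *Uqcrfs1* (−0.61) did not overlap, *Dld* (−0.59) did, and *Pck1* (−0.39) and *Cox5b* (−0.40) had the largest p of their lists. Cholesterol synthesis had 2 of 25 genes below all controls, among them *Stard4* (−0.61), a share near the 7.47% of all genes. Its median was −0.18. With total counts it was 0.055, or −0.23 relative to all genes. *Nsdhl* (−0.63), *Tm7sf2* (−0.77), *Hmgcs1* (−0.26) and *Sqle* (0.15) overlapped.

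Most genes of NAD+ salvage, NR and NAD kinases and the path from tryptophan lay below the control mean in Alport mice on NR. The groups overlapped for the majority, and not all of these genes make NAD+, *Nadk2* and *Nnmt* among those that do not. *Nampt*, the enzyme of the salvage from nicotinamide, was at 117, 203, 254 and 178 CPM in Alport and 281, 259, 271 and 313 CPM in control mice (−0.55 ± 0.22, adjusted p = 0.203), a narrow gap without overlap. The NR kinase *Nmrk1* was at 50.9, 76.5, 54.4 and 75.4 CPM against 75.5, 99.4, 98.7 and 104 CPM (−0.52 ± 0.17, adjusted p = 0.14), where Alport replicate 2 lay above the lowest control. *Nadk2*, the mitochondrial NAD kinase, was at 42.0, 83.7, 63.3 and 90.7 CPM against 119.7, 135, 113 and 146 CPM (−0.85 ± 0.23, adjusted p = 0.0948) without overlap. *Nnmt* (1.41), which methylates nicotinamide, and *Nadsyn1* (−0.24) overlapped, *Nmnat2* (−0.16) had the largest p, and the median of 13 genes of this group was −0.16. With total counts it was 0.11, or −0.18 relative to all genes. Without control replicate 2 or 4 it was −0.078 or −0.082, and without Alport replicate 4 or control replicate 1 it was −0.27 in either case. In the path from tryptophan, all 8 tested genes were below 0 (median −0.74). *Kmo* was at 46.1, 115, 50.9 and 116 CPM in Alport and 142, 139, 141 and 199 CPM in control mice (−0.89 ± 0.32, adjusted p = 0.167) and was the 1 gene of this path without overlap. The others named by rule were *Kynu* (−1.0), *Acmsd* (−1.06), *Aadat* (−0.72) and *Qprt* (−0.19). Among 15 NAD-consuming enzymes the median was 0.032. The 3 that lay above all controls were the ADP-ribosyl transferases *Parp14* (1.14), *Parp3* (0.93) and *Parp9* (0.67), of which *Parp9* and *Parp14* are also interferon-stimulated. *Sirt7* (−0.31) overlapped and *Sirt1* (0.032) had the largest p.

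Stress responses were led by single mice. For the 29 targets of NRF2, the regulator of the antioxidant response, the list score differed from the control mean by −0.66, −0.44, 0.81 and −0.41 in Alport replicates 1 to 4, so that replicate 3 alone lay above. The median of −0.17 was −0.45 without replicate 3. With total counts it was 0.086, or −0.20 relative to all genes. *Gsta1*, a glutathione transferase, was at 22.3, 29.6, 314 and 11.8 CPM in Alport and 78.9, 5.82, 48.0 and 16.9 CPM in control mice (1.36 ± 1.07, adjusted p = 0.468), and the cystine transporter *Slc7a11* at 3.88, 2.78, 30.5 and 2.46 CPM against 2.02, 1.98, 2.19 and 2.83 CPM (2.16 ± 0.80, adjusted p = 0.174). In both genes replicate 3 was the highest of the 8 mice, and the other 3 Alport mice lay within the control range for *Gsta1* and at 3.88 CPM or less for *Slc7a11*. *Osgin1* (−0.99) and *Gsta3* (−0.76) lay below all controls, *Akr1b8* (1.62) and *Nqo1* (−0.34) overlapped, and *Gsr* (0.0065) had the largest p. For 17 genes of serine synthesis and the ATF4 response, the median was 0.89, and 0.17 without replicate 3. *Psat1*, of serine synthesis, was at 55.7, 76.6, 106 and 57.3 CPM in Alport and 34.4, 36.8, 25.5 and 41.8 CPM in control mice (1.13 ± 0.23, adjusted p = 0.0742) without overlap. *Phgdh*, the step before it, was at 17.4, 9.68, 67.8 and 10.9 CPM against 32.9, 9.83, 13.0 and 5.07 CPM (0.82 ± 0.72, adjusted p = 0.504) and overlapped. *Vldlr* (−0.46) lay below all controls, *Slc7a1* (1.20) and *Slc7a5* (1.10) overlapped, and *Psph* (−0.035) had the largest p.

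Markers of other cells were checked beside these. Of 18 endothelial markers 1 lay above all controls, *Eng* at 178, 140.3, 144 and 145 CPM in Alport and 132, 124, 126 and 126 CPM in control mice (0.29 ± 0.12, adjusted p = 0.214), and the median was 0.039. *Kdr* (−0.27), *Nos3* (0.48), *Tek* (−0.24) and *Ehd3* (0.0099) overlapped. Only 5 of 12 adipocyte markers and 1 of 11 adrenal markers passed the filter, *Lipe* (−0.62), *Cidec* (1.01), *Plin4* (0.88), *Fabp4* (−0.27), *Car3* (−0.48) and *Star* (0.30), and all overlapped. Genes of red blood cells were low in 2 Alport mice, with *Hbb-bs*, adult beta globin, at 25.8, 436, 14.5 and 442 CPM in Alport and 273, 246, 337 and 454 CPM in control mice. Their score differed from the control mean by −3.48, 0.56, −4.35 and 0.46 in Alport replicates 1 to 4, and the other members were *Alas2* (−0.49), *Hbb-bt* (−0.46), *Hba-a1* (−0.39) and *Hba-a2* (−0.27). Replicates 1 and 3 were the 2 mice lowest in globin and in proximal tubule genes, and the part of blood left in the tissue in these results was not tested.

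The same genotype difference in males on vehicle shares no mouse with the one on NR. There, edgeR called 7765 of 15286 genes (50.8%), 4091 higher and 3674 lower, and 50.6% of genes did not overlap. Across 14775 genes the log2 fold changes under NR and vehicle had a Pearson r of 0.854, a description over genes, which are not independent replicates. Genes called higher in vehicle-treated female Alport mice, a choice that uses neither set of males, had a median of 0.62 under NR and 1.06 under vehicle in males, and 95.7% of the 3518 were above 0 under NR. For the 3388 called lower the medians were −0.34 and −0.44, and 94.6% were below 0 under NR. Since these genes were chosen under vehicle, the choice may favour larger vehicle values, and no such choice was made under NR. Median log2 fold changes under NR and vehicle were 2.19 and 3.48 for macrophage genes, 1.91 and 2.91 for matrix genes and 1.63 and 2.71 for tubule injury genes. In log2 units the medians lay closer for mitochondrial FAO, at −0.61 and −0.67, and the respiratory chain, at −0.48 and −0.44. Not every list of metabolism was this close. Cholesterol synthesis was at −0.18 and −0.41, NAD salvage at −0.16 and −0.37 and the path from tryptophan at −0.738 and −1.004. Other PPAR targets were lower under NR, at −0.57 and −0.44. Proximal tubule markers were at −0.75 and −1.02. Relative to the size of the medians, the gaps of cholesterol synthesis and NAD salvage were not small.

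**Figure D3:**
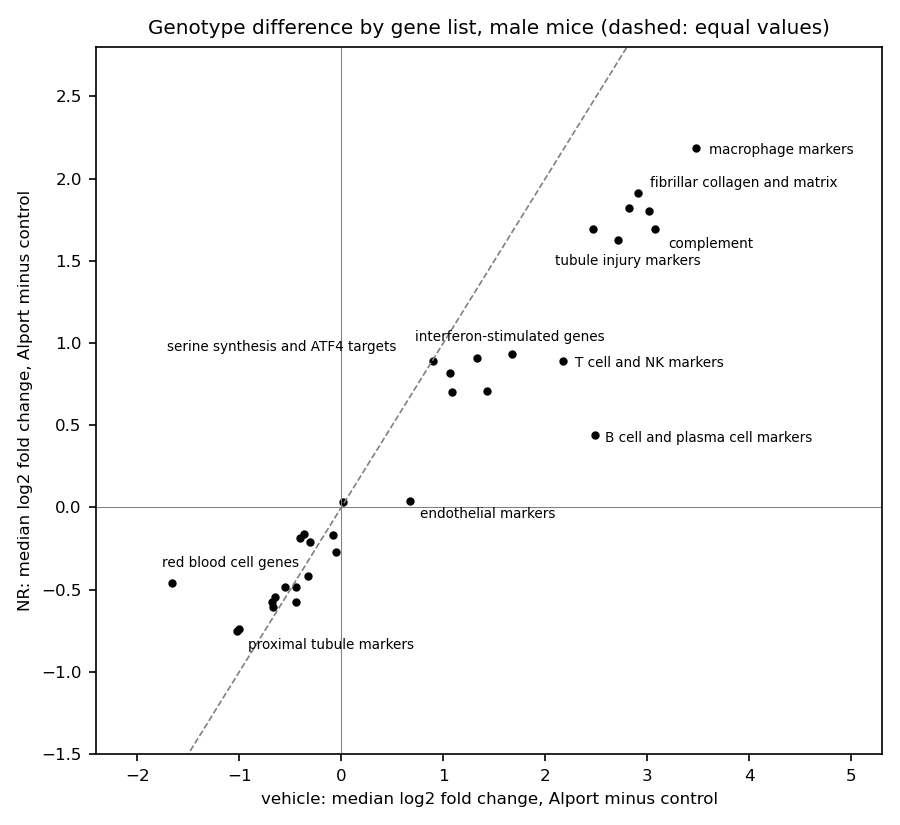
Median log2 fold change of Alport minus control males for each list with at least 5 tested genes, under vehicle (horizontal axis) and NR (vertical axis), with a dashed line of equal values. Lists above 0 lie mostly below the line, with macrophage genes at 3.48 and 2.19 and B cell genes at 2.48 and 0.44. The lists of metabolism lie closer to the line than these, in log2 units.

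The test of the difference itself, the interaction of genotype and treatment in 16 males, called no gene in edgeR. The smallest adjusted p was 0.293, and 1395 of 15800 genes (8.83%) had an unadjusted p under 0.05, 407 above 0 (2.58%) and 988 below (6.25%). DESeq2 called 20 genes, 18 of them below 0, and limma-voom none. Without NR-treated Alport replicate 1, edgeR called 784 genes, 727 of them below 0, so that the count of 0 depends on this mouse. An unadjusted p under 0.05 was reached by 14 of 26 tubule injury, 11 of 27 matrix, 7 of 9 MHC class II and 7 of 10 B cell genes, and by 0 of 24 mitochondrial FAO and 0 of 24 proximal tubule genes. Values below 0 mean a smaller rise or larger drop in Alport mice on NR than on vehicle. The 5 genes below 0 with the smallest p were *Fgfbp1* (−1.93 ± 0.32, SE), the transcription cofactor *Lmo2* (−1.69 ± 0.31), the retinol carrier *Rbp4* (−3.41 ± 0.66), the export pump *Abcc3* (−2.46 ± 0.49) and *C3* (−3.26 ± 0.66). *Fgfbp1*, a carrier of fibroblast growth factors, had a mean of 6.57 ± 1.53 CPM (SD, n = 4) in Alport and 5.28 ± 1.13 in control mice on NR, and 7.29 ± 1.28 and 1.57 ± 0.352 on vehicle. *C3* had 1225 ± 809 and 206 ± 148 CPM on NR and 1253 ± 81.9 and 22.9 ± 2.29 on vehicle. For both genes the means of the Alport groups lay closer together than those of the control groups, by fold. Genes above 0 included *Ica1l* (2.20 ± 0.55), acetylcholinesterase *Ache* (0.79 ± 0.20), *Sh3tc1* (0.74 ± 0.19) and the RNA polymerase subunit *Polr1e* (0.64 ± 0.17).

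Levels of the male groups were set side by side as a description. Tubule injury genes had a list score of 3.14 ± 0.129 log2 CPM (SD, n = 4) in vehicle-treated and 4.31 ± 0.622 in NR-treated controls, without overlap, and 6.06 ± 0.167 and 5.95 ± 0.658 in the Alport mice, with overlap. Macrophage genes were at 1.95 ± 0.139 and 2.60 ± 0.417 in controls and 4.84 ± 0.202 and 4.42 ± 0.891 in Alport mice. Endothelial markers were at 4.87 ± 0.0374 and 5.42 ± 0.201 in controls and 5.40 ± 0.192 and 5.45 ± 0.105 in Alport mice, and 12 of 18 had an unadjusted interaction p under 0.05. The score of NR-treated controls lay above that of all vehicle-treated controls in 13 of 34 lists and below in 2. In 4 lists the Alport mice on NR also lay above all Alport mice on vehicle, namely other PPAR targets, NRF2 targets, cholesterol synthesis and adipocyte markers. Other PPAR targets were at 5.20 ± 0.283 and 6.53 ± 0.342 in controls and 4.81 ± 0.114 and 5.91 ± 0.430 in Alport mice. Mitochondrial FAO genes were at 7.88 ± 0.142 and 8.17 ± 0.0224 in controls and 7.13 ± 0.166 and 7.46 ± 0.460 in Alport mice, where Alport replicate 2 on NR lay within the vehicle-treated control range and replicate 4 just below it. The effect of NR within a genotype was not tested here.

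**Figure D4:**
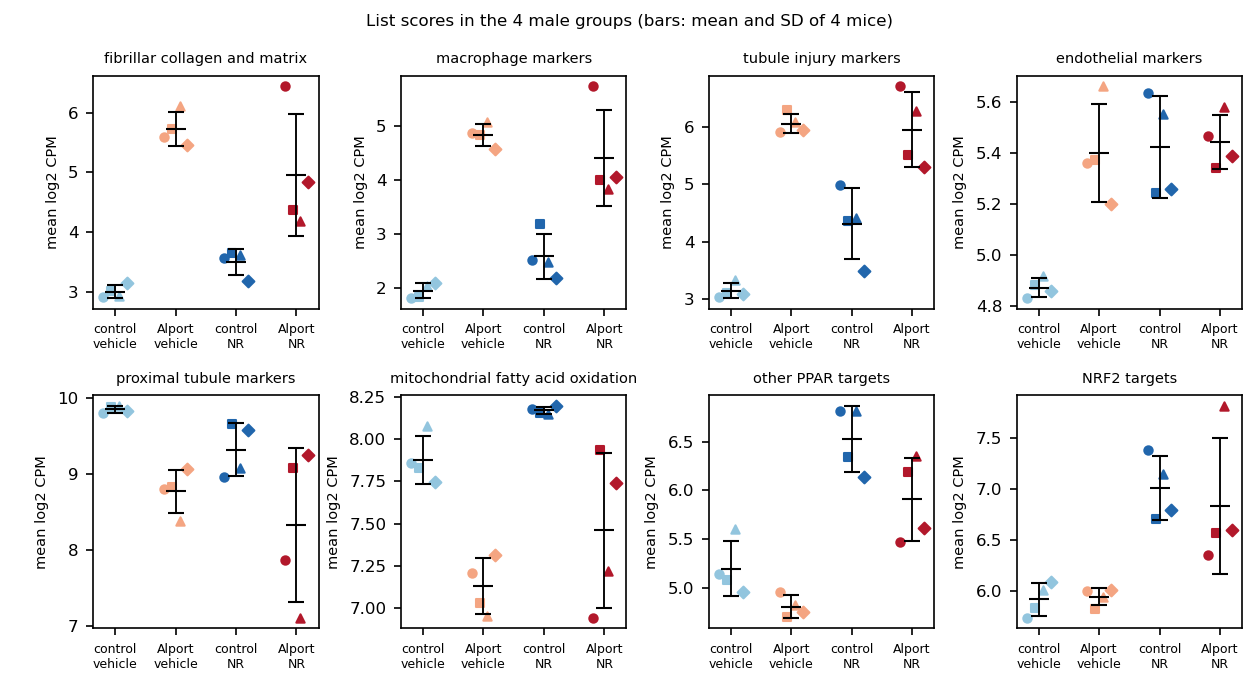
Mean log2 CPM of 8 gene lists (vertical axes) in each of the 16 male mice, with 1 symbol per replicate and bars for the mean and SD of 4 mice. NR-treated controls lie above vehicle-treated controls for matrix, macrophage, tubule injury, endothelial, mitochondrial FAO, PPAR target and NRF2 target genes, and the NR-treated Alport mice range from 7.11 to 9.25 for proximal tubule markers.

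In females on NR, which share no mouse with the males, edgeR called 4155 of 15109 genes (27.5%), 2159 higher and 1996 lower, and 30.9% of genes did not overlap. The log2 fold changes of the sexes had a Pearson r of 0.826 over 14737 genes. List medians in males and females were 1.91 and 1.79 for matrix genes, 0.82 and 0.70 for podocyte markers, −0.75 and −0.77 for proximal tubule markers and −0.61 and −0.41 for mitochondrial FAO. Other PPAR targets were at −0.57 and −0.044. *Nes* had 1.33 in females (adjusted p = 0.00117), *Col4a3* −1.07 (0.000112), *Havcr1* 4.03 (0.0188) and *Cpt1a* −0.28 (0.326). The interaction of sex and genotype under NR called no gene in edgeR and limma-voom and 1 in DESeq2, with 401 of 15703 genes (2.55%) at an unadjusted p under 0.05. The genes with the smallest p above 0, meaning a higher log2 fold change in males than in females, included the transcription factor *Foxp2* (2.08), the arginine deiminase *Padi2* (2.23), *Foxred2* (1.10) and *Gbp3* (1.46). Below 0 they were the interleukin receptor *Il5ra* (−1.88), *Meox1* (−0.96), *Myl3* (−1.30), *Mcoln3* (−0.88) and the retinoic acid hydroxylase *Cyp26b1* (−3.10). *Gbp3* was 1.07 in males and −0.39 in females (adjusted p = 0.246).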

How the data were processed

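Poly(A)-selected RNA of kidney cortex was sequenced, 1 library per mouse in 8 groups of 4. The authors deposited raw counts per gene, aligned and summarised with BioJupies according to their methods. The submitters' processing notes name the build mm10, and the aligner version and use of strand are not given in the sources used here, so reads of overlapping genes on opposite strands cannot be told apart. All 32 count columns were matched to samples by title, 0 were left over, and a table of log values was not used.

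Genes were filtered with filterByExpr (minimum count 10), scaled by TMM and tested with edgeR 4.0.16 (R 4.3.3) by the quasi-likelihood F test with robust dispersion, in the 8 mice of each comparison or the 16 mice of each interaction, after tests on simulated data. P-values were adjusted by Benjamini-Hochberg, with a threshold of 0.05. Alternatives were limma-voom (limma 3.58.1), DESeq2 1.42.0, RLE size factors, total counts, other filters, wider fits, a 2-fold limit, a replicate block and leaving out each mouse. An adjusted p under 0.10, the scaling of genes without overlap and repeats of the vehicle and female comparisons were added after seeing the data. CPM values carry the TMM factors, and log2 CPM a prior count of 2. Precision is limited by 4 mice per group and by depths of 18588229 or more counts in the 8 NR-treated males and 16621944 or more in all 32 mice.

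The members and the 34 gene lists were chosen with earlier results of these data known. The rule named, per list, the 4 genes with the smallest p and the one with the largest, 5 genes on each side of both interactions and a panel of 41 genes. Its other clause, the largest changes among genes past the threshold, named none. Several genes that the rule names are not reported here. It left out predicted genes and immunoglobulin or T cell receptor segments. *Ltbp2*, *Stc2*, *Kirrel*, *Tgtp1*, *Mmp2*, *Tnc*, *Mrc1*, *Clec2h*, *Slc22a26*, *Apom*, *Hao2*, *Papss2* and the other genes outside the rule were chosen after values were seen.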

Additional observations from a re-analysis of the deposited data

Results flagged for a closer look

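In groups of 4 mice, 16 of 178 values tested by Dixon's ratio, the gap to the nearest mouse over the range of the group, exceeded the 95% critical value for 4 samples, and chance alone passes about 1 in 20 groups. Alport replicate 1 on NR was the highest for the scores of macrophage markers (ratio 0.884, 5.75 log2 CPM against 4.07 in the next mouse), myofibroblast markers (0.933, 5.33 against 4.48) and matrix proteases (0.835, 5.70 against 4.39). It was also the highest for *Mrc1* (0.963), *Vim* (0.920) and *Eng* (0.855). Alport replicate 3 was the highest for NRF2 targets (0.833, 7.82 against 6.60) and for serine synthesis and ATF4 targets (0.830, 5.25 against 4.13). Alport replicate 2 was the highest for NAD salvage genes (0.836, 4.55 against 4.45) and for *Slc25a20* (0.941).

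Among the controls, replicate 2 was the highest for MHC class II genes (0.967, 4.56 against 3.65) and for *Ighm* (0.969). Replicate 4 was the lowest for *Col4a2* (0.951) and the highest for *Kmo* (0.941). Replicate 1 was the lowest for *Nmrk1* (0.839), and replicate 3 the highest for neutrophil markers (0.857).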

How the results depend on the processing

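The count of 0 genes for the genotype difference under NR held with limma-voom, RLE size factors, total counts, a minimum of 10 counts in every mouse and a 2-fold limit. It was 1381 with DESeq2, 29 without a filter, 2352 in the fit of 16 males, 4554 in that of 32 mice, 702 at an adjusted p under 0.10 and 0 to 87 when a mouse was left out. A replicate block gave 351 genes. Same-numbered Alport and control mice deviated together with correlations of 0.048 to 0.212, all above 0 but not all over 0.1. For mice of unlike numbers the correlations had both signs, from −0.398 to 0.271. The numbers were therefore not taken as pairs, and under the block both interactions stayed at 0. The interaction with treatment gave 20 genes with DESeq2, 1 with 32 mice and 0 to 784 when a mouse was left out, and that with sex gave 1 with DESeq2 and 0 to 2. Of 3723 values of 220 named genes under the alternatives, 474 passed the threshold and 0 turned with an unadjusted p under 0.05 in either fit, while 102 changed sign at an unadjusted p of 0.05 or more in both fits. With total counts the medians were 0.012 for adipocyte markers, 0.052 for PPAR regulators, 0.055 for cholesterol synthesis, 0.11 for NAD salvage and 0.086 for NRF2 targets. Relative to the median of all genes in that fit they stayed below 0, at −0.27, −0.23, −0.23, −0.18 and −0.20 in that order. Leaving out a mouse gave medians of −0.74 to 0.84 for B cell, −0.026 to 0.17 for endothelial and −0.31 to 0.52 for adipocyte markers and −0.047 to 0.14 for NAD-consuming enzymes. The cholesterol median was −0.066 without Alport replicate 1 and −0.41 without replicate 3, the NRF2 median −0.044 without control replicate 1, or −0.053 without Alport replicate 1, that of PPAR regulators −0.11 without Alport replicate 1, and that of neutrophil markers 0.57 without control replicate 4 and 1.38 without control replicate 3. The causes were not tested.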
